A study of Homo sapiens with 6 samples.

Results

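RNA-seq counts of 253J cells were examined for the p53 pathway, represented by 32 genes out of 60483 in the count files. The genes were taken by symbol, through the Ensembl ID of each row, from a list of regulators and well-known targets of p53, and all 32 had a row. 253J is a human bladder cancer cell line. The siFTO group held cells given an siRNA against FTO, the enzyme that removes m6A from RNA, and comprised replicates 4, 5 and 6. The control group held cells given a control siRNA and comprised replicates 1, 2 and 3. Both groups came from the same line in the same medium with serum, with no other agent named. The sample labels name siRNA, whereas the methods of the study describe shRNA, and neither says that the replicates were separate cultures, so the p-values speak of the spread among these libraries alone, which may be technical.

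p53 is a transcription factor that is held at a low level by the ubiquitin ligase MDM2 and its partner MDM4, and that accumulates when DNA is damaged or ribosome assembly is disturbed. Active p53 raises genes that stop the cell cycle, repair DNA, kill the cell or adjust metabolism, and it also raises MDM2 and the phosphatase PPM1D, which switch it off again. The pathway is often altered in bladder cancer.

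Total counts were 13162731 to 15709975 in the siFTO libraries and 10991789 to 19891269 in the control libraries. FTO (ENSG00000140718.17) stood at 20.2, 20.7 and 15.7 CPM (counts per 1000000 of the scaled library size) in siFTO 4, 5 and 6, against 31.8, 21.4 and 31.2 CPM in control 1, 2 and 3. All siFTO values lay below all control values, and the log2 fold change was -0.57 (SE, the standard error, 0.16; edgeR adjusted p = 0.0209). FTO lost its call without control 1 (-0.49, edgeR adjusted p = 0.107) or control 3 (-0.49, adjusted p = 0.113). In mesenchymal and leukocyte markers, siFTO 4 and 5 stood apart from the other 4 libraries. Over all genes tested, the log2 CPM of siFTO 6 correlated at 0.979 and 0.976 with siFTO 4 and 5. With the controls the correlation of siFTO 6 was 0.967 to 0.981. Markers of mesenchymal cells (16 genes) summed to 2901 and 3549 CPM of the library totals in siFTO 4 and 5 and to 343 CPM in siFTO 6, against 291 to 302 CPM in the controls, with 11, 11, 3 and 1 to 2 of the markers at 10 CPM or more. COL3A1, THY1, LUM and DCN were at 0 in siFTO 6 and the controls, and had 1 to 22 counts in siFTO 4 and 5. Highest in siFTO 4 and 5 were VIM (636 and 730 scaled CPM) and TGFBI (611 and 796 scaled CPM). COL6A1, at 268 to 286 scaled CPM in the controls and 278 in siFTO 6, made up most of the sums there. PDGFRB overlapped between the groups. Leukocyte markers (13 genes) summed to 116, 147 and 7.52 CPM in siFTO 4, 5 and 6, against 3.83 to 5.82 CPM in the controls, with CD3E and MS4A1 at 0 in every library. The sums in siFTO 4 and 5 were carried by the MHC class II genes CD74, HLA-DRA and HLA-DRB1, the 3 markers at 10 CPM or more there, while the general leukocyte marker PTPRC had 1 count in siFTO 4 and 0 in the other libraries. Of 12 urothelial markers, 2 reached 10 CPM in each siFTO library and 1 to 2 in the controls, UPK1B was at 0 in every library, and GATA3 was at most 0.849 CPM. Of 14 intestinal markers, 11 reached 10 CPM in each siFTO library and 8 to 9 in the controls. The 10 epithelial markers summed to 8660, 8801 and 10942 CPM in siFTO 4, 5 and 6, against 8979 to 10884 CPM in the controls, and 3 of them (CLDN7, ESRP1 and RAB25) were lower in siFTO cells in edgeR. Most of the urothelial markers were thus under 10 CPM in these libraries. They summed to 71.5 to 86.2 CPM in the siFTO libraries and 70.2 to 90.5 CPM in the controls. The intestinal markers summed to 1432 to 1827 CPM in the siFTO libraries and 1400 to 1576 CPM in the controls. These sums hide changes in both directions. In edgeR 4 of the 14 (REG4, MUC2, KRT20 and ISX) were higher and 4 (CDX2, LGALS4, AGR2 and SPDEF) lower, beside 19.5% and 17.9% of all genes tested. REG4 stood at 169, 150 and 225 scaled CPM in siFTO 4, 5 and 6, against 33.5 to 36.3 in the controls. CDX2 stood at 139, 142 and 169 scaled CPM, against 245 to 283 in the controls. The part of these marker differences in the results for the p53 genes was not tested, and fewer cells of a type cannot be told apart from less RNA per cell.

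Of the 32 genes, 30 passed the filter on low counts and were tested together with all 14965 genes that passed it, and EDA2R and SPATA18 did not pass. Among the 30 genes, 19 (63.3%) were higher and 2 (6.67%) were lower in siFTO cells at an adjusted p under 0.05 in edgeR's quasi-likelihood test, against 19.5% higher and 17.9% lower among all genes tested. Their median log2 fold change was 0.56, against 0.0057 over all genes tested. In 18 of the 30 genes every siFTO library lay above every control library, and in 3 every siFTO library lay below, against 25.8% and 25.6% of all genes tested. Scaled by library totals alone, which moved the median of all genes to 0.13, the split was 21 higher and 1 lower among the p53 genes, with 4088 higher and 1787 lower among all genes, against 2913 and 2684 in the scaling used here. With siFTO 4 and 5 left out, siFTO 6 alone against the controls gave 12 of 30 genes higher and 1 lower, with a median of 0.47, against 6.17% higher and 5.89% lower among all genes tested in that fit. With 1 siFTO library the spread in that fit came from the 3 controls alone. Wherever its calls or adjusted p are given, siFTO 6 was assumed to vary like the controls. Where lost calls are listed for a gene, a loss in siFTO 6 alone is not always included. Per kilobase of the longest annotated transcript, the most abundant of the 30 genes in siFTO cells was CDKN1A, at a mean level of 150.4 CPM per kilobase, followed by BAX at 116 and CCNG1 at 82.5 CPM per kilobase, and the least abundant was TP53INP1 at 1.13 CPM per kilobase.

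**Figure D1:**
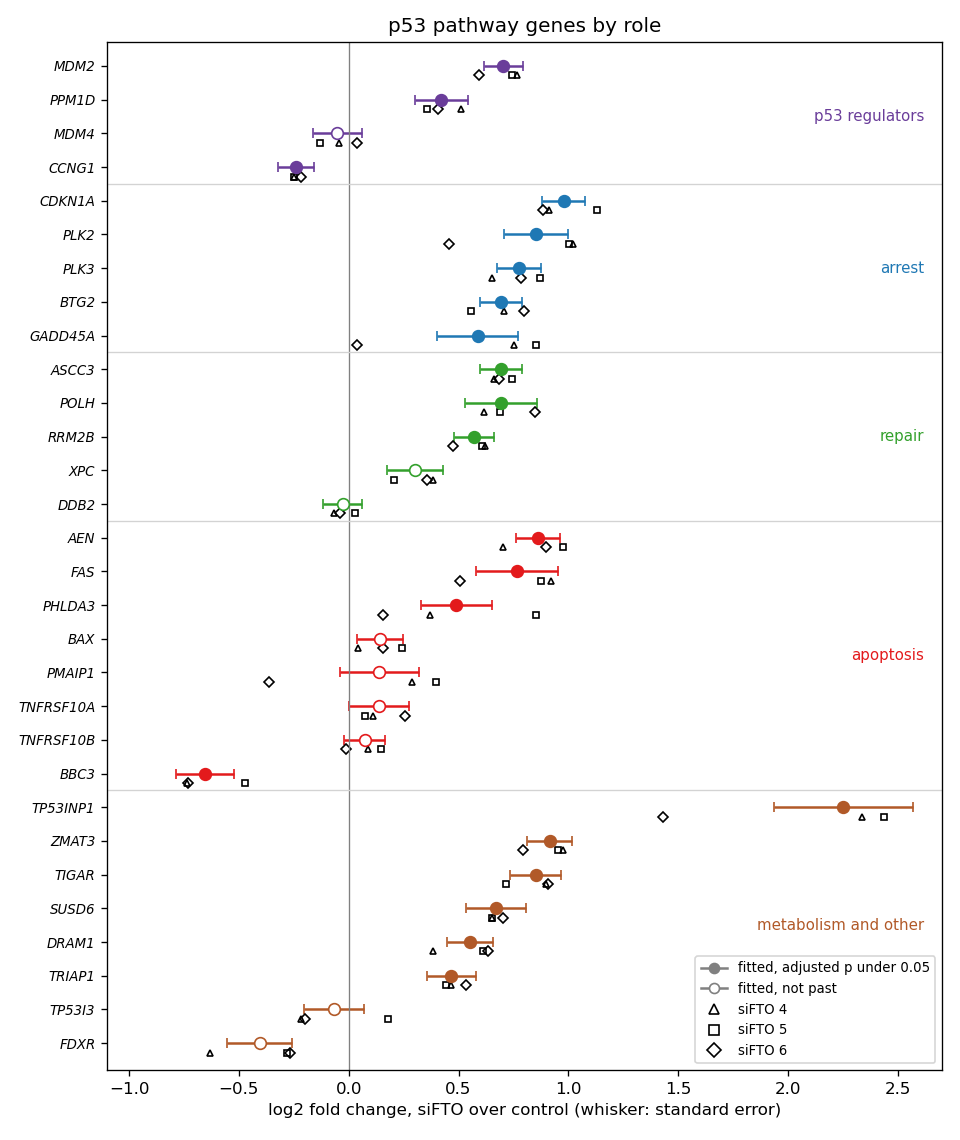
Log2 fold change of siFTO over control for the 30 p53 pathway genes tested, ordered by role, with the standard error as whiskers. Filled circles passed an adjusted p of 0.05 in edgeR, open circles did not, and the small symbols are siFTO 4, 5 and 6 relative to the control mean. TP53INP1 lies farthest to the right at 2.25, and BBC3 lies farthest to the left at -0.65.

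p53 binds DNA as a tetramer at a pair of adjoining 10-base units, and such pairs were searched on both strands in RefSeq promoter windows of 300 bases on GRCh38.p14, from 250 bases before each transcription start to 50 after it. A pair was counted when both units had an intact core, lay at most 13 bases apart and held at most 2 mismatches to the p53 consensus in all. Windows were found for 25 of the 32 genes, and not for GADD45A, PHLDA3, TNFRSF10A, TNFRSF10B, RRM2B, TP53INP1 and ASCC3. A pair was found in 3 of the 35 windows of these genes (8.57%), those of AEN, FAS and DDB2, and in 1.46% of all 35116 windows. A single unit without mismatch was found in 5 of the 35 windows (14.3%), with PLK2 and FDXR besides those 3, and in 6.63% of all windows. The FAS window held 2 such pairs, and the one with the fewest mismatches and then the shortest gap is shown. These stretches are shown because the genes that hold them did not move alike. The units are in capitals and 4 flanking bases on each side in lower case, 5′ to 3′ on the strand of the gene, and FDXR and PLK2 hold a single unit.
AEN: agccGGGCTTGCCCGGGCATGTGGgagc
FAS: tcctGGACAAGCCCTGACAAGCCAagcc
DDB2: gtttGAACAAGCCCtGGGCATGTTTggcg
PLK2: gacaAGACTTGCTTcccg
FDXR: gagcGGGCTTGCCCtgcg
The stretches lie at chr15:88621302-88621329 (AEN, plus strand), chr10:88991305-88991332 (FAS, plus strand), chr11:47214975-47215003 (DDB2, plus strand), chr5:58460205-58460222 (PLK2, minus strand) and chr17:74872992-74873009 (FDXR, minus strand). Counted from the first transcribed base as 1, the units span -34 to -15 in AEN, -122 to -103 in FAS, 6 to 26 in DDB2, -132 to -123 in PLK2 and -11 to -2 in FDXR. The pair in DDB2 had 0 mismatches and the pairs in AEN and FAS had 2 each. A match is a description of the letters and was not tested as a binding site. Sites outside these windows or without an intact core were not searched for.

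Among the regulators of p53, the ligase MDM2 and the phosphatase PPM1D rose, CCNG1 fell, and MDM4 did not pass the test. MDM2 (ENSG00000135679.20), which marks p53 for degradation and is itself raised by p53, stood at 70.6, 69.6 and 62.6 CPM in siFTO 4, 5 and 6, against 41.0, 40.9 and 42.6 CPM in control 1, 2 and 3. The groups did not overlap, and each siFTO library was well above the narrow band of the controls. The mean was 67.6 ± 4.36 CPM in siFTO cells and 41.5 ± 0.956 CPM in control cells (SD, n = 3 each), a log2 fold change of 0.70 (SE 0.09, edgeR adjusted p = 0.000765). MDM2 kept its call, at a log2 fold change of 0.32, when trends of the fold change with transcript length and GC content were removed (the length and GC correction). PPM1D (WIP1), which removes phosphates from p53 and its kinases, stood at 28.3, 25.4 and 26.3 CPM in siFTO 4, 5 and 6, against 22.0, 17.0 and 20.7 CPM in the controls. The groups lay close but did not overlap, and the log2 fold change was 0.42 (SE 0.12, edgeR adjusted p = 0.019). PPM1D lost its call without control 3 (0.45, edgeR adjusted p = 0.0564) or without siFTO 4 (0.37, adjusted p = 0.0815). PPM1D also lost it after the length and GC correction (0.25, edgeR adjusted p = 0.0664) and in siFTO 6 alone (0.41). Cyclin G1 (CCNG1), a p53 target that activates MDM2 through the phosphatase PP2A, stood at 201, 201 and 205 CPM in siFTO 4, 5 and 6, against 249, 225 and 245 CPM in the controls. It lay below every control in each siFTO library, by a small margin, with a log2 fold change of -0.24 (SE 0.08, edgeR adjusted p = 0.0386). CCNG1 lost its call in edgeR without control 1 (adjusted p = 0.104) or 3 (adjusted p = 0.0957) or without siFTO 4 (adjusted p = 0.122) or 5 (adjusted p = 0.104), with log2 fold changes of -0.24 to -0.22. It also lost its call with library totals alone (-0.12, edgeR adjusted p = 0.306), without the filter (-0.24, adjusted p = 0.101) and in siFTO 6 alone (-0.22). MDM4, which binds p53 and blocks its activation domain, stood at 37.2, 35.1 and 39.4 CPM in siFTO 4, 5 and 6, inside the range of 33.2 to 42.9 CPM of the controls (log2 fold change -0.051, edgeR adjusted p = 0.738). MDM4 passed as lower after the length and GC correction alone among the alternatives (-0.39, edgeR adjusted p = 0.0077).

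All 5 genes of cell cycle arrest were higher in siFTO cells, with a median log2 fold change of 0.78 and a range of 0.59 to 0.98. CDKN1A (p21, ENSG00000124762.12), which inhibits the cyclin-dependent kinases, stood at 325, 379 and 319 CPM in siFTO 4, 5 and 6, against 181, 177 and 161 CPM in the controls. The lowest siFTO library was far above the highest control. The mean was 341 ± 32.8 CPM in siFTO cells and 173 ± 10.9 CPM in control cells (SD, n = 3 each), a log2 fold change of 0.98 (SE 0.10, edgeR adjusted p = 0.000267). BTG2, an antiproliferative partner of the CCR4-NOT deadenylase, stood at 51.4, 46.3 and 54.8 CPM in siFTO 4, 5 and 6, against 32.9, 31.5 and 30.02 CPM in the controls. Its 3 siFTO libraries were alike and clear of the controls, with a log2 fold change of 0.69 (SE 0.10, edgeR adjusted p = 0.00106). The Polo-like kinase PLK3, a stress kinase, stood at 27.7, 32.1 and 30.3 CPM in siFTO 4, 5 and 6, against 17.1, 17.7 and 17.8 CPM in the controls, and likewise without overlap (log2 fold change 0.78, SE 0.10, edgeR adjusted p = 0.000832). CDKN1A, BTG2 and PLK3 passed in each of 15 alternative fits, including that of siFTO 6 alone.

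The other pair of arrest genes differed among the siFTO libraries. PLK2, a kinase of the same family that carries the single p53 unit shown above, stood at 83.0, 81.9 and 56.1 CPM in siFTO 4, 5 and 6, against 43.9, 41.5 and 37.4 CPM in the controls. The value of siFTO 6 lay between those of siFTO 4 and 5 and those of the controls, and did not overlap with either. PLK2 had a log2 fold change of 0.85 (SE 0.15, edgeR adjusted p = 0.00224), and of 0.46 in siFTO 6 alone (edgeR adjusted p = 0.0614). GADD45A, which binds PCNA and CDK1 and holds cells before mitosis, stood at 79.7, 85.4 and 48.5 CPM in siFTO 4, 5 and 6, against 47.5, 52.6 and 42.2 CPM in the controls. It was high in siFTO 4 and 5 and inside the control range in siFTO 6. GADD45A had a log2 fold change of 0.59 (SE 0.18, edgeR adjusted p = 0.0294), and of 0.033 in siFTO 6 alone (edgeR adjusted p = 0.916), and it lost its call in edgeR when any library other than siFTO 6 was left out (0.44 to 0.67, adjusted p of 0.0965 to 0.161) or with limma voom (0.56, adjusted p = 0.0508).

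**Figure D2:**
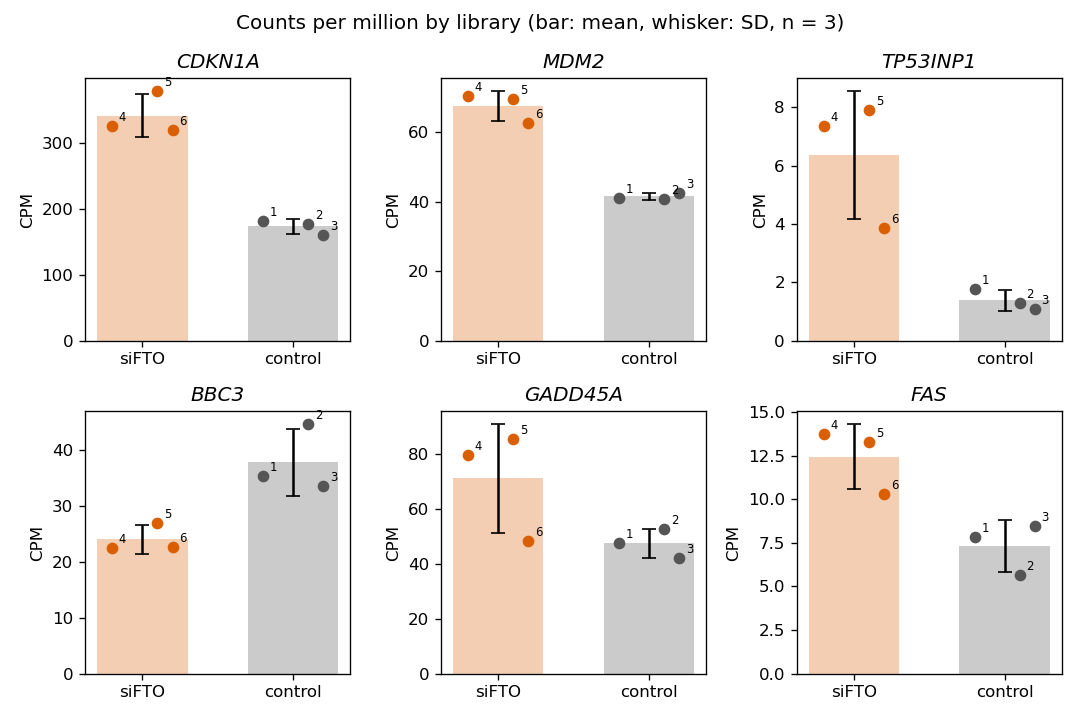
CPM of 6 p53 pathway genes in the siFTO libraries (left, replicates 4, 5 and 6) and the control libraries (right, replicates 1, 2 and 3), with each library as a numbered point. Bars are means and whiskers are SD. CDKN1A lies at 319 to 379 CPM in siFTO and at 161 to 181 CPM in control, BBC3 is lower in each siFTO library, and siFTO 6 falls to 48.5 CPM in GADD45A, inside the control range.

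Of the 5 genes of DNA repair and nucleotide supply, 3 were higher and 2 did not pass, with a median log2 fold change of 0.57. ASCC3, a helicase of alkylation repair, stood at 43.7, 46.2 and 44.3 CPM in siFTO 4, 5 and 6, against 28.5, 24.98 and 29.5 CPM in the controls. The siFTO libraries were nearly equal and all above the controls, with a log2 fold change of 0.69 (SE 0.10, edgeR adjusted p = 0.00103). RRM2B, the ribonucleotide reductase subunit that p53 raises for repair outside S phase, stood at 42.6, 42.2 and 38.6 CPM in siFTO 4, 5 and 6, against 26.9, 28.7 and 27.4 CPM in the controls. No siFTO library came near the controls (log2 fold change 0.57, SE 0.09, edgeR adjusted p = 0.00173), and the log2 fold change was 0.48 in siFTO 6 alone (edgeR adjusted p = 0.0538). POLH, the polymerase that copies past ultraviolet lesions, stood at 21.9, 23.0 and 25.7 CPM in siFTO 4, 5 and 6, against 15.1, 10.9 and 17.6 CPM in the controls. The groups did not overlap, with siFTO 6 the highest library and control 2 the lowest (log2 fold change 0.69, SE 0.16, edgeR adjusted p = 0.00908), and POLH lost its call without control 1 (0.71, edgeR adjusted p = 0.0618). After the length and GC correction the log2 fold changes of ASCC3 and RRM2B were 0.38 and 0.36, both still past the threshold.

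Both damage sensors of nucleotide excision repair failed to pass. XPC, which finds distorted DNA, stood at 48.2, 42.7 and 47.2 CPM in siFTO 4, 5 and 6, against 39.0, 30.1 and 42.9 CPM in the controls, and the groups overlapped between siFTO 5 and control 3. Its log2 fold change was 0.30 (SE 0.13, edgeR adjusted p = 0.089), and it passed with library totals alone (0.42, adjusted p = 0.0372). DDB2, which binds ultraviolet lesions, stood at 84.5, 90.3 and 86.1 CPM in siFTO 4, 5 and 6, against 88.0, 96.9 and 81.2 CPM in the controls. Every siFTO library fell inside the control range, and the log2 fold change was -0.028 with a SE of 0.09 (edgeR adjusted p = 0.825). DDB2 carries the p53 pair without mismatch, and AEN and FAS, with 2 mismatches each, were higher in siFTO cells. Whether these pairs bear on the changes was not tested. In GENCODE 29 the exons of XPC overlap those of LSM3 and the exons of POLH overlap those of GTPBP2, on the opposite strand in both cases, and both partners had more counts than XPC or POLH. Without a stated strand setting, reads in those overlaps cannot be told apart, so the values of XPC and POLH are uncertain.

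Among the 9 genes of apoptosis, 8 were tested, of which 3 were higher, 1 was lower and 4 did not pass, with a median log2 fold change of 0.14. AEN, a nuclease that cuts DNA and RNA in apoptosis, stood at 91.1, 110.2 and 104 CPM in siFTO 4, 5 and 6, against 56.0, 52.2 and 59.9 CPM in the controls. The 3 siFTO libraries lay together above the controls (log2 fold change 0.86, SE 0.10, edgeR adjusted p = 0.000537). FAS, the death receptor for FAS ligand, stood at 13.7, 13.3 and 10.3 CPM in siFTO 4, 5 and 6, against 7.82, 5.63 and 8.47 CPM in the controls. The siFTO 6 value was the lowest of its group but above each control, with a log2 fold change of 0.77 (SE 0.19, edgeR adjusted p = 0.0104). FAS had a log2 fold change of 0.49 in siFTO 6 alone (edgeR adjusted p = 0.191), and it lost its call without control 1 (0.80, adjusted p = 0.0604) or 2 (0.61, adjusted p = 0.0566). PHLDA3, which blocks the survival kinase AKT at the membrane, stood at 46.8, 65.4 and 40.4 CPM in siFTO 4, 5 and 6, against 35.4, 39.7 and 33.7 CPM in the controls. It was high mainly in siFTO 5, and siFTO 6 barely cleared control 2 (log2 fold change 0.49, SE 0.16, edgeR adjusted p = 0.0349). PHLDA3 lost its call in edgeR when any library other than siFTO 6 was left out (0.27 to 0.56, adjusted p of 0.0613 to 0.157). PHLDA3 also lost it with limma voom, and had a log2 fold change of 0.16 in siFTO 6 alone.

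The BH3-only protein BBC3 (PUMA, ENSG00000105327.14), which neutralises BCL2 proteins at the mitochondrion, went the other way. It stood at 22.4, 27.0 and 22.5 CPM in siFTO 4, 5 and 6, against 35.3, 44.6 and 33.5 CPM in the controls. Every siFTO library was below every control, and siFTO 6 was as low as siFTO 4. The mean was 24.0 ± 2.60 CPM in siFTO cells and 37.8 ± 5.98 CPM in control cells (SD, n = 3 each), a log2 fold change of -0.65 (SE 0.13, edgeR adjusted p = 0.00434). BBC3 passed in all 15 alternative fits, and the log2 fold change was -0.29 after the length and GC correction. PMAIP1 (NOXA), another BH3-only protein, stood at 19.95, 21.5 and 12.7 CPM in siFTO 4, 5 and 6, against 14.98, 16.3 and 17.8 CPM in the controls. Its siFTO libraries lay on both sides of the control range, siFTO 4 and 5 above and siFTO 6 below (log2 fold change 0.14, SE 0.18, edgeR adjusted p = 0.567). BAX, the pore-forming effector, stood at 147, 169 and 159 CPM in siFTO 4, 5 and 6, against 127, 163 and 139 CPM in the controls, with overlap (log2 fold change 0.14, edgeR adjusted p = 0.304). BAX passed as higher with library totals alone (0.27, edgeR adjusted p = 0.0468) and after the length and GC correction (0.46, adjusted p = 0.00167). The TRAIL receptors TNFRSF10A and TNFRSF10B stood at 12.1 to 13.7 and 123 to 138 CPM in siFTO cells, against 10.3 to 13.1 and 113 to 137 CPM in control cells. Both overlapped between the groups, with log2 fold changes of 0.14 and 0.073 (edgeR adjusted p of 0.455 and 0.557). Exons of FAS overlap those of ACTA2, exons of TNFRSF10B those of RHOBTB2, and exons of TNFRSF10A those of 2 noncoding RNAs, on the opposite strand, and their values are uncertain for the same reason as those of XPC and POLH.

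Of the 9 genes of metabolism, autophagy and other roles, 8 were tested, 6 were higher and 2 did not pass, with a median log2 fold change of 0.61. TP53INP1 (ENSG00000164938.12), a nuclear stress protein that aids apoptosis and autophagy, had the largest change of the 30 genes and a low level. It stood at 7.36, 7.90 and 3.86 CPM in siFTO 4, 5 and 6, against 1.77, 1.27 and 1.09 CPM in the controls. The lowest siFTO library was above the highest control, and siFTO 6 stood between siFTO 5 and the controls. The mean was 6.37 ± 2.19 CPM in siFTO cells and 1.38 ± 0.353 CPM in control cells (SD, n = 3 each), from 53 to 127 counts in the siFTO libraries and 19 to 21 counts in the control libraries. The log2 fold change was 2.25 (SE 0.32, edgeR adjusted p = 0.00106), and 1.53 in siFTO 6 alone (adjusted p = 0.0197). ZMAT3, a zinc finger protein that binds RNA and alters splicing, stood at 37.1, 36.5 and 32.7 CPM in siFTO 4, 5 and 6, against 20.3, 18.1 and 18.1 CPM in the controls. It was clear of the controls in each siFTO library (log2 fold change 0.92, SE 0.10, edgeR adjusted p = 0.000493), with 0.57 after the length and GC correction. TIGAR, a phosphatase that lowers glycolytic flux, stood at 25.7, 22.6 and 25.8 CPM in siFTO 4, 5 and 6, against 14.8, 13.7 and 12.7 CPM in the controls. The siFTO values were alike, siFTO 6 being the highest (log2 fold change 0.85, SE 0.11, edgeR adjusted p = 0.000915).

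SUSD6, a membrane protein of the DNA damage response, stood at 16.1, 16.0 and 16.6 CPM in siFTO 4, 5 and 6, against 11.9, 8.77 and 10.1 CPM in the controls (log2 fold change 0.67, SE 0.14, edgeR adjusted p = 0.00499). DRAM1, a lysosomal protein of autophagy, stood at 27.6, 32.3 and 32.8 CPM in siFTO 4, 5 and 6, against 21.9, 21.3 and 20.2 CPM in the controls (log2 fold change 0.55, SE 0.10, edgeR adjusted p = 0.00356). TRIAP1, a small mitochondrial lipid carrier subunit that opposes cell death, stood at 47.5, 46.7 and 49.7 CPM in siFTO 4, 5 and 6, against 29.3, 39.3 and 35.1 CPM in the controls (log2 fold change 0.47, SE 0.11, edgeR adjusted p = 0.00971). In these 3 genes the groups did not overlap, and siFTO 6 was the highest library. TRIAP1 lost its call without control 3 (0.48, edgeR adjusted p = 0.0534) and in siFTO 6 alone (0.52). The ferredoxin reductase FDXR, an enzyme of mitochondrial electron transfer that carries the other single p53 unit shown above, stood at 55.5, 70.8 and 71.3 CPM in siFTO 4, 5 and 6, against 72.8, 108 and 81.2 CPM in the controls. Every siFTO library was below every control, siFTO 6 only just, and the log2 fold change was -0.41 (SE 0.15, edgeR adjusted p = 0.0538). FDXR passed as lower in 5 of 15 alternative fits, among them that without siFTO 6 (-0.48, edgeR adjusted p = 0.0162). The quinone oxidoreductase TP53I3 stood at 13.4, 17.7 and 13.6 CPM in siFTO 4, 5 and 6, against 15.4, 16.4 and 14.9 CPM in the controls, with overlap (log2 fold change -0.066, edgeR adjusted p = 0.727).

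The pair of genes under the filter was seen almost only in siFTO 4 and 5. SPATA18 (Mieap), a protein of mitochondrial quality control, had 16, 22 and 0 counts in siFTO 4, 5 and 6, against 0 counts in each of the 3 controls. EDA2R, a receptor of the tumour necrosis factor family, had 5, 13 and 0 counts in siFTO 4, 5 and 6, against 1, 0 and 1 counts in the controls. A count of 0 in the 13162731 counts of siFTO 6 allows up to 0.228 CPM, and a count of 0 in the 47066375 counts of the controls together up to 0.0637 CPM. These limits cover counting error only. SPATA18 and EDA2R were not alone in this pattern. Many genes were nearly silent in the controls, with 3 counts or fewer there. Of these, 871 reached 5 counts or more in siFTO 4 and 1065 in siFTO 5, against 80 in siFTO 6. The mesenchymal marker sums given above are also high in siFTO 4 and 5 alone. A link between those sums and the 2 genes was not tested.

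By role, the median log2 fold change was 0.19 for the 4 regulators of p53, 0.78 for the 5 arrest genes, 0.57 for the 5 repair genes, 0.14 for the 8 apoptosis genes tested and 0.61 for the 8 genes of metabolism and other roles. The share that was higher was 5 of 5 for arrest, 3 of 5 for repair and 3 of 8 for apoptosis, beside 19.5% of all genes. In siFTO 6 alone against the controls, the medians were 0.79 for arrest, 0.48 for repair and 0.15 for apoptosis. These are descriptions of short lists chosen with earlier results of these data known, and the difference between roles was not tested.

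siFTO 6 was set beside siFTO 4 and 5 gene by gene. Relative to the control mean, the median log2 deviation of the 30 genes was 0.56, 0.61 and 0.47 in siFTO 4, 5 and 6. In 24 of the 30 genes (80%) siFTO 6 lay within 0.25 log2 units of the mean of siFTO 4 and 5, beside 68.1% of all genes tested. In the other 6 genes siFTO 6 was lower in each case, by 0.96 for TP53INP1, 0.76 for GADD45A, 0.70 for PMAIP1, 0.56 for PLK2, 0.45 for PHLDA3 and 0.39 for FAS. Gaps of any size put siFTO 6 below that mean in 16 of the 30 genes, beside 7169 of all 14965 genes tested. The direction of the larger gaps over all genes was not counted. The 21 genes past the threshold with all libraries kept their direction in siFTO 6 alone against the controls. That fit shares siFTO 6 and the controls with the main fit, so it is not a separate check. Smallest in size there were the log2 fold changes of GADD45A (0.033), PHLDA3 (0.16) and CCNG1 (-0.22). MDM2, CDKN1A, AEN, TIGAR and BBC3 are examples of the 24 genes within 0.25 of the mean of siFTO 4 and 5. Their log2 deviations are given here for siFTO 4, 5 and 6 in turn. They were 0.76, 0.74 and 0.59 (MDM2), 0.91, 1.13 and 0.88 (CDKN1A), and 0.70, 0.98 and 0.90 (AEN). For TIGAR they were 0.90, 0.71 and 0.91, and for BBC3 -0.74, -0.47 and -0.73. Of these genes, AEN and BBC3 differed most between siFTO 4 and siFTO 5. The split of the siFTO libraries was seen in the data and is not a label, so it was not tested.

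**Figure D3:**
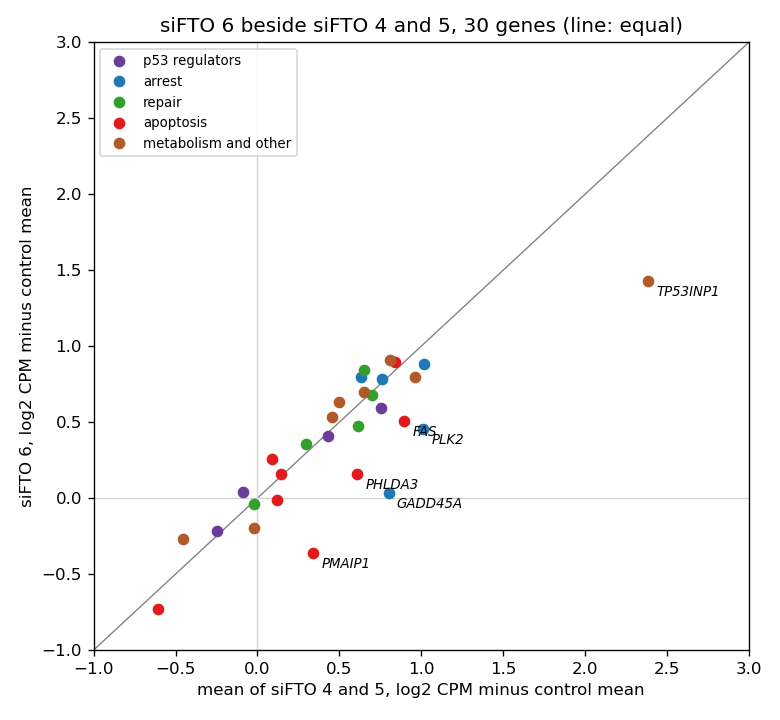
Log2 CPM minus the control mean in siFTO 6 (vertical) and in the mean of siFTO 4 and 5 (horizontal) for the 30 p53 pathway genes tested, coloured by role, with the line of equal values. The 6 named genes lie at least 0.25 below the line, and the other 24 lie within 0.18 below and 0.19 above it.

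Other genes of the pathway were taken from 3 further lists. Of 45 other p53 targets, 43 were tested, and 19 were higher, 5 lower and 19 not past the threshold, beside 19.5% higher and 17.9% lower among all genes. Their median log2 fold change was 0.20. The increases included those of IGFBP3 (4.38), which binds insulin-like growth factors, and of TRIM22 (3.85), an antiviral ligase. IGFBP3 stood at 21.6, 23.2 and 1.39 CPM in siFTO 4, 5 and 6, against 0.670 to 0.837 CPM in the controls, and TRIM22 was likewise far higher in siFTO 4 and 5 than in siFTO 6. In siFTO 6 alone neither IGFBP3 (0.91, edgeR adjusted p = 0.256) nor TRIM22 (1.68, edgeR adjusted p = 0.0999) passed, and IGFBP3 lost its call without control 1, 2 or 3 (4.31 to 4.44, adjusted p of 0.0508 to 0.0583). The largest decreases were those of SYTL1 (-1.35), a vesicle transport protein, of SESN2 (-0.57), a sestrin that restrains mTORC1, and of PIDD1 (-0.44), a scaffold that activates caspase-2. SESN2 lost its call without control 1, 2 or 3 (-0.62 to -0.49, edgeR adjusted p of 0.0676 to 0.0989). PIDD1 lost its call without control 2 or 3 or siFTO 4 (-0.44 to -0.33, edgeR adjusted p of 0.118 to 0.149). PIDD1 also lost it with library totals alone (-0.32, edgeR adjusted p = 0.0773).

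Of 20 genes upstream of p53, 18 were tested, and 6 were higher, 4 lower and 8 not past the threshold, beside 19.5% higher and 17.9% lower among all genes. Their median log2 fold change was -0.0016. The largest increases upstream were those of the kinase HIPK2 (1.55), of TP53BP1 (0.73), a chromatin reader at DNA breaks, and of the damage kinase ATR (0.52), which lost its call after the length and GC correction (0.20, edgeR adjusted p = 0.113). HIPK2 stood at 60.1, 62.9 and 25.1 CPM in siFTO 4, 5 and 6, against 14.4 to 18.7 CPM in the controls, and it lost its call without control 2 (1.44, edgeR adjusted p = 0.052) and in siFTO 6 alone (0.57, adjusted p = 0.0545). The largest decreases were those of the ribosomal proteins RPL5 (-0.73) and RPL11 (-0.65), which bind MDM2 when ribosome assembly is disturbed, and of the kinase CHEK2 (-0.42). CHEK2 lost its call without control 1 (-0.45, edgeR adjusted p = 0.0515) or siFTO 4 (-0.38, adjusted p = 0.0571). CDKN2A, the gene of the MDM2 inhibitor ARF, had 0 counts in all 6 libraries, which allows up to 0.0335 CPM over their 89486344 counts.

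p53 lowers mitotic genes through CDKN1A and the DREAM complex, and 18 of these genes were tested. Among them 3 were higher, 3 lower and 12 not past the threshold, with a median log2 fold change of 0.059, beside 19.5% higher and 17.9% lower among all genes. The lower genes were the phosphatase CDC25C (-0.59), the cyclin CCNB2 (-0.42) and the kinase AURKB (-0.30), and the higher ones were the checkpoint genes BUB1B (0.64) and BUB1 (0.43) and the transcription factor FOXM1 (0.36). CDC25C stood at 50.9, 45.5 and 48.0 CPM in siFTO 4, 5 and 6, against 67.9, 77.7 and 71.8 CPM in the controls, without overlap, and it passed in all 15 alternative fits. In edgeR, AURKB lost its call without control 2 or 3 or siFTO 4 or 5 (-0.30 to -0.23, adjusted p of 0.074 to 0.103). AURKB also lost it with library totals alone (-0.18, edgeR adjusted p = 0.132) and after the length and GC correction, where its log2 fold change was -0.026 (adjusted p = 0.811). BUB1B lost its call without control 1 (0.69, edgeR adjusted p = 0.0635). BUB1 lost its call without control 1 or 2 or siFTO 4 (0.30 to 0.45, edgeR adjusted p of 0.0769 to 0.105), and FOXM1 lost its call without control 1 or 2 or siFTO 4 or 5 (0.23 to 0.38, adjusted p of 0.0691 to 0.109).

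**Figure D4:**
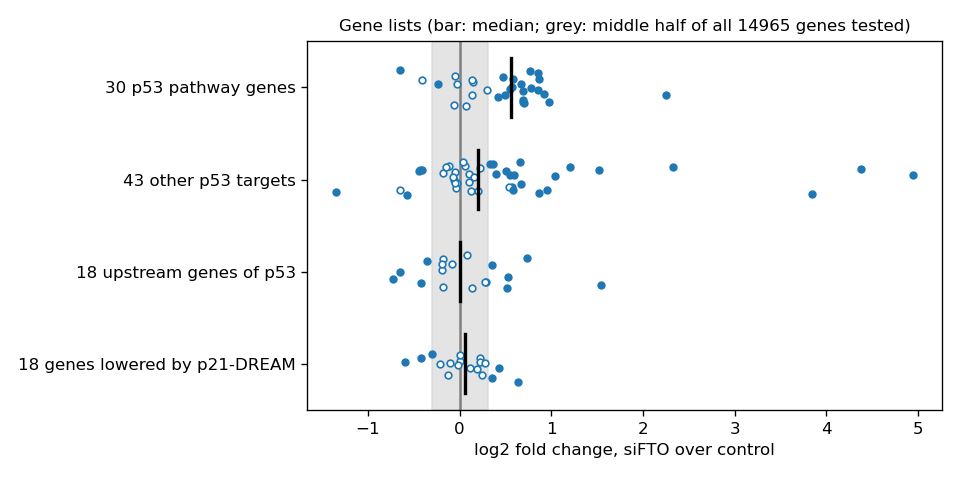
Log2 fold change of siFTO over control for the genes tested in 4 lists, with the median of each list as a bar, filled points past an adjusted p of 0.05 in edgeR, and the grey band from -0.31 to 0.31 holding the middle of all genes tested. The median is 0.56 for the p53 pathway genes, 0.20 for other p53 targets, -0.0016 for upstream genes and 0.059 for genes lowered through CDKN1A and DREAM.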

How the data were processed

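RNA-seq of 253J cells was analysed from 3 siFTO and 3 control libraries, grouped by their labels. The authors deposited 1 file of counts of reads per gene for each library, not normalized. The submitters' notes list TopHat2 2.0.11 (an aligner), HTSeq (a read counter), hg19 and GRCh37, without saying how each was used. The strand setting and the annotation release were not given in the sources used here. Of 60483 gene IDs, 56321 (93.1%) had a symbol. Low genes were dropped with filterByExpr (10 counts per library, 15 in total) of edgeR 4.0.16, run in R 4.3.3. Library sizes were scaled by TMM, and siFTO and control were compared by the quasi-likelihood test without covariates. Two-sided p-values of all 14965 genes left were adjusted together (Benjamini-Hochberg), and an adjusted p under 0.05 was called. SE is the size of the log2 fold change over the square root of F. Log2 CPM used a prior count of 2.

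The p53 genes, their roles and the other lists were chosen with earlier results of these data known. Every p53 gene is named. From each other list up to 3 genes in each direction with the largest change past the threshold are named. Some genes of these lists are not reported here. No 2 libraries agreed within sampling noise (chi-square per degree of freedom of at least 3.9 within a group). It was 12.3 and 19.6 for control 2 with controls 1 and 3, and 14 and 20.3 for siFTO 6 with siFTO 4 and 5. Alternatives were other scalings, filters, DESeq2 1.42.0, limma 3.58.1 voom, a correction for the length and GC content of the longest GENCODE 29 transcript, a threshold of 0.01, leaving out each library, and leaving out siFTO 4 and 5.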

Additional observations from a re-analysis of the deposited data

How the results depend on the processing

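The 21 p53 genes past the threshold kept their direction in all 15 alternative fits, 14 of them passed in all 6 fits that left out 1 library, and 12 passed in all 15. Leaving out 1 library at a time gave 15 to 20 genes higher, 1 to 3 lower and a median log2 fold change of 0.50 to 0.61, and FTO lay between -0.74 and -0.47. Among all genes tested in those fits, 1383 to 3826 were higher and 1589 to 2928 were lower, out of 15033 to 16243. With library totals alone 1 gene was lower, the median was 0.68 and FTO was at -0.46 (adjusted p = 0.0576 from edgeR). The median was 0.47 after the length and GC correction. siFTO 6 alone gave 12 higher, 1 lower and a median of 0.47. At a threshold of 0.01, 15 genes were higher and 1 was lower, and FTO (-0.57) did not pass. Of all 14965 genes tested, 1411 were higher and 1338 were lower at that threshold. The median gap of siFTO 6 to siFTO 4 and 5 was -0.021, and -0.070 to 0.013 without siFTO 4 or 5. Genes that did not pass changed sign as follows. With library totals alone MDM4 was at 0.066, DDB2 at 0.095 and TP53I3 at 0.054. After the length and GC correction TNFRSF10B was at -0.024 and TP53I3 at 0.15. In siFTO 6 alone MDM4 was at 0.033, PMAIP1 at -0.37 and TNFRSF10B at -0.013. Leaving out 1 library put MDM4 between -0.15 and 0.016, DDB2 between -0.089 and 0.041, TP53I3 between -0.21 and 8.9e-05 and PMAIP1 between -0.0051 and 0.32. The cause of these changes was not tested. No paired analysis was possible because the groups share no replicate numbers. TP53INP1 rests on 19 to 127 counts per library, which limits its precision.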
